A study of Homo sapiens with 38 samples.

Results

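A549 cells were profiled on microarrays after exposure for 24 h to silica nanoparticles (NPs) at 6.0 µg/cm2, the highest dose of the series, beside control cells. The comparison held 6 of the 38 arrays of the series. The members were chosen by their labels alone: the 3 exposed arrays carried the dose of 6.0 µg/cm2 and the time of 24 h, and the 3 control arrays carried untreated A549 cells at 24 h on the same 3 slides. A549 is an established human lung adenocarcinoma line that is widely used as a model of the alveolar epithelium, and the particles were a fumed amorphous silica. Control and exposed cells alike were kept in serum-free medium during the exposure, so that both groups shared the removal of serum. The labels describe 3 different cultures, and each array was hybridised with labelled RNA of 1 sample. The series tested 5 doses at 24 h and the 2 higher doses also at 72 h. It asked how the transcriptional response of lung cells changes with the dose.

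Amorphous silica particles settle on cultured cells and are taken up into endosomes and lysosomes. Epithelial cells that meet particles are known to release cytokines and chemokines, largely through NF-kB and AP-1, transcription factors that wait in the cytosol or are activated by MAP kinases. Damaged or misfolded protein switches on heat shock genes through HSF1, and stress on the endoplasmic reticulum or on amino acid supply switches on ATF4 and CHOP (encoded by DDIT3). A549 cells also express many genes typical of the liver and of drug metabolism, among them fibrinogen, UDP-glucuronosyltransferases and aldo-keto reductases.

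Levels are given throughout as the log2 of the processed signal relative to the 75th percentile of the same array, so that a level of 0 is the 75th percentile, and levels are compared only within a probe. The 75th percentile lay between 1035 and 1313 signal units on the 6 arrays, the scanner marked 64.1% to 67.1% of probes on an array as well above background, and none was saturated. The pairwise correlation across probes lay between 0.9969 and 0.998 within a group and between 0.9888 and 0.99 between the groups. Each control array lay at position 1 of its slide and each exposed array at position 3, so that position and exposure cannot be told apart. Of 10 markers of type II alveolar cells, 6 were well above background on all 6 arrays, SFTPC among them, while SFTPA1, SFTPB, NKX2-1 and SLC34A2 were so on none. Of 10 epithelial markers 8 were well above background on all 6 arrays, keratins 7, 8, 18 and 19 included. Of 10 markers of fibroblasts and endothelial cells, 7 were so on no array. Of 9 markers of macrophages and other leukocytes, 5 were so on all 6 arrays and 1 on none.

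How much of the transcriptome differed after 24 h at 6.0 µg/cm2? Of 22174 probes that cleared the background on all arrays of 1 or both groups, 2066 were modulated, which here means an adjusted p under 0.05 in limma and a difference of 1.5-fold or more. That is a share of 9.32%, with 875 probes (3.95%) higher and 1191 (5.37%) lower in exposed cells. With normexp background correction, an alternative way to treat dim spots, 803 passed, 471 higher and 332 lower. The median difference over all tested probes was -0.03 on the log2 scale. On all 3 slides, 2065 of the 2066 probes differed in the same direction, and for 2063 of them the groups did not overlap, against 50.6% of all tested probes. Large changes leaned upwards: 71 probes rose at least 4-fold and 36 fell at least 4-fold, although fewer probes rose than fell in all. When each gene was represented by its brightest tested probe, 1450 of 14352 genes (10.1%) were modulated, 629 (4.38%) higher and 821 (5.72%) lower. These shares are the background for every list of genes below. Modulated probes were more frequent among dim ones. In the dimmest of 3 equal parts of the tested probes 5.6% were higher and 8.93% lower, and in the brightest part 2.61% and 2.62%.

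**Figure D1:**
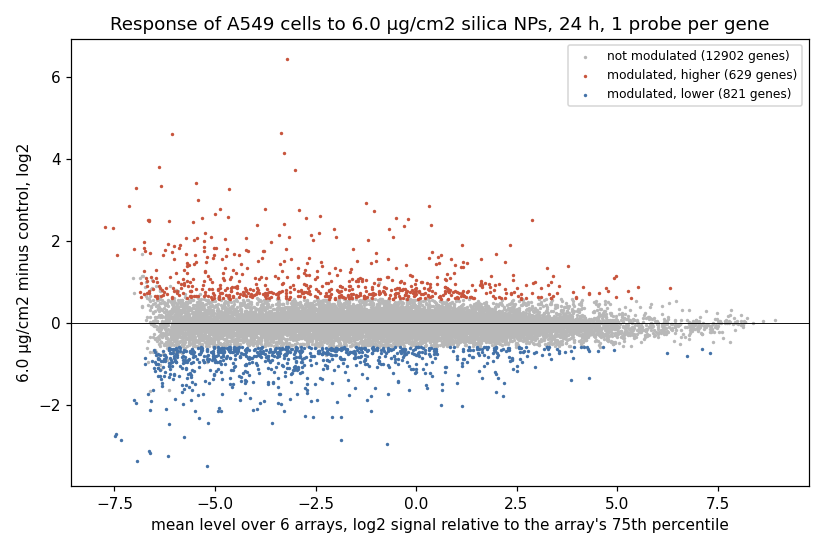
Difference between 6.0 µg/cm2 and control at 24 h (vertical axis, log2) against the mean level over the 6 arrays (horizontal axis, log2 signal relative to the array's 75th percentile), 1 point per gene. The 629 higher genes (red) reach a difference of 6.43, the 821 lower genes (blue) one of -3.49, and most of the genes with large differences lie left of a level of 0.

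The gene that rose most was C11orf96, which stood at -6.05, -6.82 and -6.44 on the control arrays and at -0.02, -0.04 and 0.06 on the exposed arrays. It was near background in control cells and close to the 75th percentile in exposed cells, without overlap. The difference was 6.43 (SE 0.18, adjusted p = 1.84e-05), and since only 1 of the 3 control arrays was well above background its 86.5-fold value rests on a dim control signal. HSPA6, a strictly stress-inducible member of the HSP70 family, stood at -6.32, -5.40 and -5.29 on the control arrays and at -1.23, -1.03 and -0.84 on the exposed arrays. Every exposed array was above every control array by more than the control arrays differed among themselves, and the difference was 4.64 (SE 0.27, adjusted p = 1.15e-04). MMP1, the interstitial collagenase that cuts fibrillar collagen, stood at -5.20, -5.25 and -5.58 on the control arrays and at -1.13, -1.17 and -1.34 on the exposed arrays. All of these values were well above background, the groups lay far apart and the gene was 17.5-fold higher (adjusted p = 1.84e-05). RHCG, an ammonia transporter of epithelial membranes, was among the brighter risers and stood at -0.97, -1.10 and -1.18 on the control arrays and at 1.66, 1.71 and 1.89 on the exposed arrays. It was 7.15-fold higher (adjusted p = 1.92e-05), and LY6K, a membrane-anchored protein of the LY6 family, was 7.58-fold higher (adjusted p = 1.18e-05). PTPRR, a tyrosine phosphatase that acts on MAP kinases, was 6.87-fold higher, and TTC9B was 9.63-fold higher.

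TXNIP, the inhibitor of thioredoxin that also restrains glucose uptake, stood at -7.98, -6.64 and -6.15 on the control arrays and at -3.72, -3.81 and -4.22 on the exposed arrays. Its control arrays were spread widely and only 1 of them was well above background, yet none reached the exposed arrays; the difference was 3.00 (SE 0.44, adjusted p = 0.00336). Several of the top risers were not well above background on any control array. For these the fold is given as a lower bound that holds under the main processing only. IL24, a cytokine of the IL-10 family, was at least 8.02-fold higher (mean level -8.39 in control and -3.77 in exposed cells, adjusted p = 1.72e-04). HCAR3, a receptor for hydroxylated fatty acids, was at least 7.88-fold higher (mean level -7.17 and -3.76, adjusted p = 2.22e-05). The long non-coding RNA LINC00520 was at least 4.84-fold higher (mean level -8.30 and -4.50, adjusted p = 1.37e-04). CD22, a sialic acid-binding lectin known from B cells, was at least 2.77-fold higher (mean level -8.61 and -5.31, adjusted p = 2.62e-04). Here the bound compares the exposed mean with the lowest signal that was well above background on each control array. Other treatments of dim spots gave smaller values. At the weakest of 12 alternative fits the log2 difference was 1.15 for IL24, 0.998 for HCAR3, 0.60 for LINC00520 and 0.59 for CD22.

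Of the 15 leading falls, LGALS2, KRT4 and C9orf152 were well above background on all arrays of both groups. LGALS2, the lectin galectin-2, stood at 0.87, 0.77 and 0.63 on the control arrays and at -2.26, -1.90 and -2.48 on the exposed arrays. It lay above the 75th percentile on every control array and far below it on every exposed array, and was 7.84-fold lower (adjusted p = 7.00e-05). KRT4, a keratin of stratified squamous epithelia, stood at -0.29, -0.51 and -0.50 on the control arrays and at -3.49, -3.37 and -3.04 on the exposed arrays and was 7.3-fold lower (adjusted p = 4.67e-05). C9orf152 stood at -2.30, -2.42 and -2.36 on the control arrays and at -5.00, -4.40 and -5.00 on the exposed arrays and was 5.43-fold lower. VIL1, the actin-bundling villin of microvilli, stood at -3.58, -3.46 and -3.29 on the control arrays and at -7.00, -7.14 and -6.66 on the exposed arrays. The exposed values were not well above background, so that the gene was at least 9.96-fold lower (adjusted p = 3.25e-05). ANKS4B, which belongs to the complex that links microvilli to one another, was likewise not well above background in exposed cells and was at least 3.33-fold lower (mean level -5.06 in control and -8.20 in exposed cells, adjusted p = 0.00707).

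CFI, the complement protease factor I, was at least 4.83-fold lower (mean level -4.53 and -7.79, adjusted p = 0.00325). NEB, the giant muscle protein nebulin, was at least 3.01-fold lower (mean level -5.25 and -8.63, adjusted p = 2.51e-05), and HBB, beta-globin, at least 3.83-fold lower (mean level -4.89 and -7.38, adjusted p = 6.14e-04). The secreted serine protease HABP2 had a difference of -2.78, with 1 of 3 exposed arrays well above background. ST6GALNAC1, which makes the sialyl-Tn antigen, had -2.44 and the peptide EDN3, endothelin 3, -2.33, each with 2 of 3 exposed arrays well above background. DMRTC1 completed the larger falls with a difference of -3.19 (SE 0.58, adjusted p = 0.00763); on exposed array 2 alone it remained well above background. The 3 dimmest of the 15 leading falls, SPTLC3 (a subunit of serine palmitoyltransferase), HLF (a clock-related transcription factor) and GSTA5 (a glutathione transferase whose probe may not separate it from its close relatives), were at least 1.92-, 1.67- and 1.66-fold lower with adjusted p of 3.67e-04, 5.94e-05 and 3.55e-05. Of the 15 leading falls, LGALS2 (-2.41) and KRT4 (-2.25) remained modulated with normexp background correction. There SPTLC3, HLF and GSTA5 became 0.05, 0.06 and 0.12, and the other 10 lost their call, with VIL1 at -0.57, NEB at -0.0505, CFI at -0.29, DMRTC1 at -0.13, ANKS4B at -0.10, HBB at -0.098, HABP2 at -0.31 and C9orf152 at -0.97. With exposed array 3 also left out no direction was reversed, and 8 of the 15 were modulated. The folds above therefore depend on how the background was treated. Of the 15 leading rises, LINC00520, CCL5, CD22 and CSF3 lost their call with normexp. At the weakest of 12 alternative fits the difference was 2.57 for MMP1, 1.48 for TTC9B and 0.41 for CCL5. Lower bounds on folds, above and below, hold under the main processing only.

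**Figure D2:**
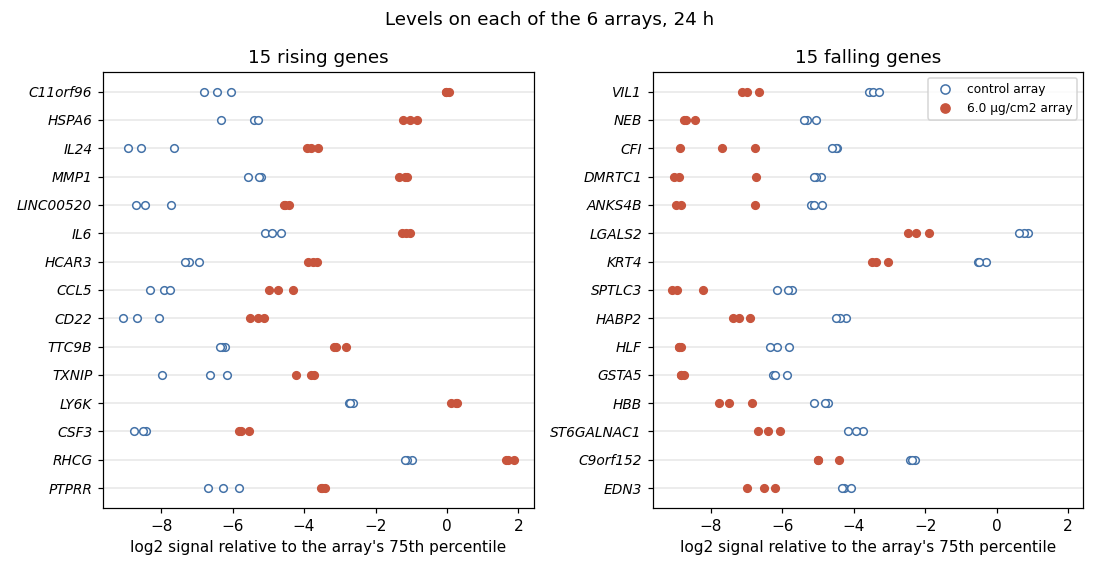
Levels of the 15 leading rising genes (left) and the 15 leading falling genes (right) on each array (log2 signal relative to the array's 75th percentile), with open circles for the 3 control arrays and filled circles for the 3 arrays at 6.0 µg/cm2. The groups do not overlap for any of the 30 genes, which was a condition of their choice; values below about -7 are not well above background.

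Secreted cytokines were among the strongest risers. Of 24 cytokines and colony-stimulating factors listed, 19 could be tested, 9 were higher and 2 lower, a share of 57.9% against 10.1% of all genes tested, with a median difference of 0.52 against -0.03 over all genes. With normexp 6 cytokines were modulated in place of 11. IL6, the main inducer of the acute phase response, stood at -5.10, -4.89 and -4.64 on the control arrays and at -1.25, -1.15 and -1.04 on the exposed arrays. It was well above background on all arrays, the groups were far apart and the gene was 13.3-fold higher (difference 3.73 (SE 0.12, adjusted p = 2.22e-05)). The neutrophil growth factor CSF3 and the granulocyte-macrophage factor CSF2 were not well above background on any control array, and were at least 2.09-fold (mean level -8.57 and -5.72, adjusted p = 3.44e-05) and at least 1.32-fold higher (mean level -8.70 and -6.38, adjusted p = 2.51e-05). IL23A, a subunit of IL-23, rose by 1.48, IL11 by 1.17 and IL32 by 1.04 on the log2 scale. TNF was at least 1.6-fold higher (mean level -7.90 and -6.10, adjusted p = 0.0135), but without exposed array 3 its adjusted p was 0.0523. The 2 cytokines that fell were TNFSF10, the death receptor ligand TRAIL, at -0.92, and TNFSF15 at -0.66.

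Of 17 chemokines 12 were tested, 5 were higher and none was lower, with a median difference of 0.46; with normexp 2 genes of the list were modulated. CCL5, which attracts T cells and monocytes, was at least 4.29-fold higher (mean level -8.01 and -4.68, adjusted p = 1.30e-04). CCL20, the ligand of CCR6, stood at -4.72, -4.65 and -4.68 on the control arrays and at -2.93, -3.02 and -2.83 on the exposed arrays. Its groups were separated by more than 1 log2 unit, with a difference of 1.76 (SE 0.06, adjusted p = 2.92e-05). CXCL8, the neutrophil attractant IL-8, stood at -6.22, -5.88 and -5.52 on the control arrays and at -4.62, -4.72 and -4.60 on the exposed arrays, a difference of 1.23 (SE 0.17, adjusted p = 0.00237) on a dim probe. CXCL2 rose by 0.70 and CXCL5 by 0.63. The bright chemokines CXCL1 (0.44, adjusted p = 0.00441) and CXCL3 (0.48, adjusted p = 0.0045) passed the p threshold but not the fold change of 1.5, and CCL2 had a difference of 0.22 (adjusted p = 0.0566). IL1A and IL1B were not well above background on all arrays of either group and were not tested.

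NF-kB genes moved in 1 direction: of 23 subunits, inhibitors and feedback genes tested, 11 were higher and none lower, with a median of 0.58. Among the subunits RELB, of the alternative pathway, stood at 2.61, 2.64 and 2.52 on the control arrays and at 3.98, 3.94 and 3.88 on the exposed arrays and was 2.53-fold higher (adjusted p = 4.14e-05). Of the inhibitors that hold NF-kB in the cytosol, NFKBIA rose by 0.70, NFKBIB by 0.61 and NFKBIE by 0.83. Of the feedback genes TNFAIP3, which encodes the ubiquitin-editing enzyme A20, stood at -3.99, -4.00 and -3.65 on the control arrays and at -2.42, -2.33 and -2.23 on the exposed arrays, with no overlap and a difference of 1.56 (SE 0.11, adjusted p = 2.12e-04). BIRC3 and TRAF1, which act at TNF receptors, rose by 1.36 and 1.44, and the kinase IRAK2 of the IL-1 receptor pathway by 1.61. Among the targets SOD2, the mitochondrial superoxide dismutase, stood at 1.43, 1.35 and 1.38 on the control arrays and at 3.21, 3.28 and 3.33 on the exposed arrays. It was bright on all arrays and 3.7-fold higher (adjusted p = 1.84e-05), and the adhesion receptor ICAM1 was 3.16-fold higher (adjusted p = 1.17e-04).

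The promoters of 5 genes that rose are shown because they hold the letters of a motif bound by the factor of their list, with the match in capitals. Each window runs from 250 bases before to 50 bases after the transcription start, taken from RefSeq on build GRCh38.p14 and written 5′ to 3′ along the gene's strand. IL6 (chr7:22726950-22727249, plus strand), CXCL2 (chr4:74099146-74099445, minus strand) and TNFAIP3 (chr6:137867009-137867308, plus strand) hold the NF-kB consensus, which in TNFAIP3 has 2 matches, both on the opposite strand. HSPA6 (chr1:161524290-161524589, plus strand) holds the heat shock element, GAA units in alternating orientation with 2 free bases between them, here read on the opposite strand. CHAC1 (chr15:40953221-40953520, plus strand) holds the C/EBP-ATF response element TGATGCAA, also on the opposite strand.
IL6: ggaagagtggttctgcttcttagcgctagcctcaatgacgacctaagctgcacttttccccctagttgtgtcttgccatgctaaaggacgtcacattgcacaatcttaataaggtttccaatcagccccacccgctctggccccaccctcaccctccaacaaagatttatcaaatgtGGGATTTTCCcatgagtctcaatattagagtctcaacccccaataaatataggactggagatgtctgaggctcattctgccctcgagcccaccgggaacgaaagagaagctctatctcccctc
CXCL2: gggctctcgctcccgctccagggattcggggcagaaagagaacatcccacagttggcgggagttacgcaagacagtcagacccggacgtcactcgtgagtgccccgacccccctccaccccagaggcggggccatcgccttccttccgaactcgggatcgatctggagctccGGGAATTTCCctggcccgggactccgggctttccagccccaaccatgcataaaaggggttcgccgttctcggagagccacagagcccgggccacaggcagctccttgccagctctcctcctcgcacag
TNFAIP3: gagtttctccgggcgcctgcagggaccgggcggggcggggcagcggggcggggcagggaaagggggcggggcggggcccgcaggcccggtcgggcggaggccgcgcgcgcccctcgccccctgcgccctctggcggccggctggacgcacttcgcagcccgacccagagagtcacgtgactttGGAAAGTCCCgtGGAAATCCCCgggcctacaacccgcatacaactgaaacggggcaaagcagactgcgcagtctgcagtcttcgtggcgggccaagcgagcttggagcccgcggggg
HSPA6: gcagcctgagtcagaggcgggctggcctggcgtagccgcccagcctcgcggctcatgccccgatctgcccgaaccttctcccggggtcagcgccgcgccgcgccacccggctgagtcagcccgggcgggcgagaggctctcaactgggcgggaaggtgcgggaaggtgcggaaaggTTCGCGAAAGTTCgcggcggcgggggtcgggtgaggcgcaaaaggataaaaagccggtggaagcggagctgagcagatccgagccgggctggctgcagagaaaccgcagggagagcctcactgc
CHAC1: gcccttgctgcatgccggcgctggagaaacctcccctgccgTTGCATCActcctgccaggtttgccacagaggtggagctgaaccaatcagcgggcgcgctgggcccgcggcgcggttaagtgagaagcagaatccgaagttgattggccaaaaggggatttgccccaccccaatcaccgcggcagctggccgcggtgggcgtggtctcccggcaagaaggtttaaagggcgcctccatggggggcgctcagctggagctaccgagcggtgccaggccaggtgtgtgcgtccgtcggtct

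Both strands of these windows were searched for short motifs. The NF-kB consensus was present in 7.41% of the 27305 promoters of the table and in 8.77% of those of the genes tested. It was in 10.2% of the promoters of genes that rose and 8.65% of those of genes that fell. Of the risers, 4 of 9 NF-kB genes (NFKBIA, NFKBIZ, TNFAIP3 and BIRC3), 3 of 8 cytokines (IL6, IL23A and IL32) and 3 of 4 chemokines (CCL20, CXCL2 and CXCL5) with a promoter in the table held it. Over all members of these lists, risen or not, it was in 8 of 22, 4 of 17 and 7 of 13. Members that were not among the risers held it too. In the NF-kB list these were NFKB1, REL, BCL3 and TRAF3, and among the chemokines CXCL1, CXCL3, CXCL6 and CXCL10. Among the cytokines it was EBI3 alone. The AP-1 site TGACTCA was in 3.39% of the promoters of genes tested, 7.79% of those that rose and 4.33% of those that fell, with CXCL8, IL11, PLAUR, LAMA3, ITGA5 and CD68 among the 36 risers. The heat shock element was rare, at 0.378% of genes tested and 0.649% of risers, which were 3 genes. Of the listed heat shock genes with a promoter 6 of 25 held it, but of the 5 that rose only HSPA6. The cyclic AMP response element TGACGTCA was in 3.09%, 3.03% and 1.66% of genes tested, risers and fallers, and the C/EBP-ATF element in 0.51%, 1.52% and 0.499%. Of the listed ATF4 and CHOP genes 1 of 20 held the C/EBP-ATF element, CHAC1, which was 1 of the 7 that rose. The antioxidant response core TGACNNNGC was in 15%, 15.4% and 12.8%. A match is a run of letters and not a measured binding site.

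Immediate-early and AP-1 genes moved in both directions: of 22 tested, 6 were higher and 3 lower. ATF3, a stress-induced partner of JUN, stood at -0.06, 0.03 and 0.35 on the control arrays and at 1.64, 1.61 and 1.73 on the exposed arrays and was 2.94-fold higher (adjusted p = 2.17e-04). MAFF, a small MAF protein, rose by 1.50, FOSL1, the AP-1 subunit FRA-1, by 1.25 and KLF6 by 1.00. The serum-responsive factors went the other way: EGR1 stood at 3.08, 2.89 and 3.13 on the control arrays and at 2.02, 1.99 and 1.92 on the exposed arrays, a difference of -1.06 (SE 0.08, adjusted p = 2.32e-04), EGR2 fell by 1.12 and FOS fell by 0.73 on the log2 scale. EGR1 kept its call under all 12 alternative fits, whereas EGR2 lost it under 3, with -0.07 at the weakest. Of 14 phosphatases and inhibitors that restrain MAP kinases, DUSP5 (1.41) and DUSP16 (0.80) were higher and none lower. That is a share of 14.3% against 10.1% of all genes. Among 10 genes of the EGF receptor family and its ligands, 4 were higher and 2 lower. The ligand EREG stood at 0.36, 0.41 and 0.47 on the control arrays and at 2.04, 1.95 and 1.73 on the exposed arrays and was 2.81-fold higher (adjusted p = 1.15e-04), HBEGF rose by 0.93 and the receptor EGFR itself by 0.69, while the receptor ERBB3 fell by 1.20 and the ligand NRG4 fell by 0.82. HBEGF, ERBB3 and NRG4 lost their call under 2, 1 and 2 of 12 alternative fits. Their weakest values were 0.53, -0.42 and -0.10.

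Heat shock genes rose selectively. All 28 inducible heat shock proteins and co-chaperones listed were tested, 6 were higher and none was lower, and the median was 0.18. After HSPA6, the small heat shock protein CRYAB stood at -3.22, -3.63 and -3.51 on the control arrays and at -1.84, -1.96 and -1.85 on the exposed arrays, with a difference of 1.57 (SE 0.11, adjusted p = 2.00e-04). Its relative HSPB8 rose by 1.29 and the co-chaperone DNAJA4 by 1.06. HSPA1A stood at 4.07, 4.53 and 4.50 on the control arrays and at 5.51, 5.45 and 5.42 on the exposed arrays and HSPA1B rose in parallel, by 1.09 and 1.15; both genes encode nearly the same HSP70 message, which the probes may not separate. Control array 1 was the lowest for both. The co-chaperone DNAJB1 (0.34, adjusted p = 0.046) and HSPH1 (0.31, adjusted p = 0.019) stayed under the fold change of 1.5.

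The ATF4 and CHOP branch of the stress response had 8 higher and no lower genes of 22 tested, with a median of 0.47. DDIT3 stood at -2.50, -2.45 and -2.43 on the control arrays and at -0.62, -0.64 and -0.70 on the exposed arrays. The 3 values of each group lay within 0.1 of one another and the groups were far apart, a difference of 1.80 (SE 0.05, adjusted p = 1.84e-05). CHAC1, which degrades glutathione, stood at 0.06, -0.27 and -0.27 on the control arrays and at 1.17, 1.26 and 1.48 on the exposed arrays and was 2.76-fold higher (adjusted p = 3.97e-04). STC2 rose by 1.51, PPP1R15A, which directs the phosphatase that resets translation, by 1.22, TRIB3 by 0.84 and SESN2 by 0.71. ATF4 itself (0.41, adjusted p = 0.00152) and asparagine synthetase ASNS (0.47, adjusted p = 0.00329) had smaller differences under the fold change of 1.5. Of 21 endoplasmic reticulum chaperones and XBP1-branch genes 2 were higher and 1 lower, a share of 14.3% against 10.1% of all genes. DNAJB9 rose by 0.79, XBP1 fell by 0.72, and the chief chaperone HSPA5 had a difference of 0.35 (adjusted p = 0.0038).

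In the list used here, NRF2 and its targets, which answer oxidants and electrophiles, were not raised. Of 28 tested none was higher and 6 were lower, with a median of -0.33 against -0.03 over all genes, and 2 of the 28 had a difference above 0. GCLC, the catalytic subunit for glutathione synthesis, stood at 2.89, 2.79 and 2.84 on the control arrays and at 2.06, 1.81 and 1.89 on the exposed arrays, a difference of -0.92 (SE 0.08, adjusted p = 4.07e-04). The glutathione peroxidase GPX2 fell by 1.36 and the aldo-keto reductase AKR1B10 fell by 0.74. AKR1C1 and AKR1C3 were lower by 1.5-fold or slightly more at -0.74 and -0.64, values that share closely related sequence and slipped under the fold threshold after quantile normalization. Heme oxygenase HMOX1 had a difference of -0.36 (adjusted p = 0.00411), GCLM of -0.49 (adjusted p = 0.00783) and NQO1 of -0.13 (adjusted p = 0.115). Metallothioneins, which bind zinc and copper, had a median with their zinc transporters of 0.41 over 11 genes tested. MT1X (0.51) and MT2A (0.46) were under the fold change of 1.5, MT1F fell by 1.01, and the zinc importer SLC39A10 rose by 0.71; the probes may not separate close MT1 copies.

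Among conjugating and oxidising enzymes more genes fell than rose. Of 21 glucuronosyl-, sulfo- and glutathione transferases, 9 were lower and 1 higher (median -0.45); with normexp 2 were modulated and the median was -0.158. UGT2B15 and UGT2B10, which glucuronidate steroids and drugs and are close in sequence, were lower, with differences of -1.74 and -1.20 (-0.16 and -0.58 with normexp, neither call kept), and the sulfotransferase SULT2B1 fell by 1.20. The 1 riser was SULT1C2, at 1.42. Of 25 cytochromes P450 and other oxidising enzymes, 11 were lower and 2 higher (median -0.31); with normexp 2 were modulated and the median was -0.0736. The folate enzyme ALDH1L1 had a difference of -1.64 (-0.0524 and not modulated with normexp). The monooxygenase FMO5 had one of -1.49, but -0.34 and no call at the weakest of 12 alternative fits. CYP4F3 fell by 1.35, whereas ALDH1A3, which makes retinoic acid, rose by 0.82. CYP1A1, the classical target of the aryl hydrocarbon receptor, had a difference of 0.78 with an adjusted p of 0.156 and a wide spread in control cells.

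Among liver-type secreted proteins more genes fell than rose. Of 27 plasma protein genes tested, 12 were lower and 2 higher, with a median of -0.56 that became 0.04 under normexp and -0.28 when exposed array 3 was also left out. The 14 modulated members became 8 and 9 in these fits. APOH, beta-2-glycoprotein I, stood at 1.70, 1.60 and 1.54 on the control arrays and at -0.38, -0.25 and -0.55 on the exposed arrays. Both groups were bright and well apart, and the gene was 4-fold lower (adjusted p = 4.77e-05). The cortisol carrier SERPINA6 fell by 2.15, AMBP fell by 1.60 and SERPINF1 fell by 1.47. The acute phase genes SAA1, at 1.74 (SE 0.11, adjusted p = 1.51e-04), and SAA2, at least 2.61-fold higher (mean level -7.90 and -5.40, adjusted p = 0.00116), rose; their probes may share signal.

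Coagulation genes moved in both directions. Of 23 tested, 8 were higher and 8 lower. All 3 fibrinogen chains fell: FGB stood at 0.36, 0.04 and 0.15 on the control arrays and at -1.56, -1.55 and -1.59 on the exposed arrays and was 3.36-fold lower (adjusted p = 6.46e-05), FGG fell by 1.65 and FGA fell by 1.08, the latter on all 3 of its probes. The clotting factor F7 had a difference of -2.16, but -0.47 and no call at the weakest of 12 alternative fits. The anticoagulant protein C (PROC) fell by 1.61 and kept its call under all 12. The plasminogen activators PLAU (0.99) and PLAT (0.81) and the urokinase receptor PLAUR (1.12) rose, as did the protease inhibitors SERPINE2 (1.08) and TFPI2 (0.72). Among 18 liver-enriched transcription factors 8 were lower and 1 higher, with a median of -0.31 that was -0.0894 under normexp. Among the alternative fits the 9 modulated members became as few as 5. The pioneer factors FOXA1 (-0.80), FOXA2 (-0.67) and FOXA3 (-0.87) fell, and CEBPB rose by 0.72. FOXA1 kept its call under all 12 alternative fits, and FOXA3 lost it under 2, with -0.32 at the weakest. HNF4A was not tested.

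Among epithelial junction genes more fell than rose, and matrix and adhesion genes moved in both directions. Of 21 junction genes 8 were lower and 1 higher, with a median of -0.29. CDH1, E-cadherin, stood at 0.77, 0.88 and 0.87 on the control arrays and at -0.32, -0.44 and -0.39 on the exposed arrays, with tight replicates and a difference of -1.22 (SE 0.06, adjusted p = 6.27e-05). The pore-forming claudin CLDN2 fell by 1.27, the tight junction protein cingulin (CGN) fell by 1.06 and EPCAM fell by 0.80. Of 26 matrix genes 3 rose, the laminin chains LAMA3 (0.64) and LAMB3 (0.61) among them. The 6 that fell included the collagen COL1A1 at -1.85 and SPARC at -0.97. The laminin-binding integrin ITGA3 rose by 1.15 and the collagen-binding ITGA2 by 1.01. Among the alternative fits the 9 modulated junction genes became as few as 5 and the 9 modulated matrix genes as few as 4. The 5 modulated integrins and syndecans became as few as 1. Of 16 matrix metalloproteinases and inhibitors, MMP1 and MMP10 (1.81) rose and none fell, a share of 12.5% near the 10.1% of all genes.

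Most cell cycle genes had small differences below 0, and some histone genes fell. Of 38 cell cycle and replication genes, 3 had a difference above 0 and the median was -0.37, but 3 passed the test (7.89% against 10.1% of all genes), all lower (MKI67, E2F2 and E2F8). Without exposed array 3 none of these 3 did, and MKI67 had an adjusted p of 0.0463 with all arrays. CCNB1 had a difference of -0.46 (adjusted p = 0.00149) and TOP2A of -0.45 (adjusted p = 0.0176). Of 60 histone genes, 17 were lower and none higher on the brightest probe of each, with a median of -0.46 and 3 of 60 above 0. H2BC21 had -0.40 on that probe but was modulated upwards on its other probe. H2AC16 stood at -3.38, -3.58 and -3.62 on the control arrays and at -4.97, -4.81 and -5.07 on the exposed arrays, a difference of -1.42 (SE 0.09, adjusted p = 1.65e-04), and H3C15 (-1.09) and H3C7 (-1.02) fell too; histone copies are close in sequence and their probes may share signal. Of 28 p53 targets 3 rose, the cyclin-dependent kinase inhibitor CDKN1A among them at 0.65 (adjusted p = 0.00222), none fell and the median was -0.00, which became 0.13 under normexp. The share of 10.7% was near the 10.1% of all genes.

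Lysosome and autophagy genes had 6 higher and no lower members of 28, with a median of 0.30. Cathepsin L (CTSL) stood at 4.51, 4.37 and 4.31 on the control arrays and at 5.53, 5.56 and 5.52 on the exposed arrays, a difference of 1.14 (SE 0.07, adjusted p = 1.12e-04) on a very bright probe, cathepsin B (CTSB) rose by 0.73 and the autophagy receptor SQSTM1 by 0.87. ATP6V0D2, a subunit of the proton pump, was at least 2.58-fold higher (mean level -7.92 and -5.41, adjusted p = 8.13e-04). Its call was lost under 2 of 12 alternative fits, with a smallest difference of 0.17. CD68, a lysosomal membrane protein that also serves as a macrophage marker, stood at -1.81, -1.74 and -1.87 on the control arrays and at 0.40, 0.51 and 0.54 on the exposed arrays and was 4.88-fold higher (adjusted p = 1.84e-05). Of the other macrophage and leukocyte markers tested, CD14 was lower at -0.70, PTPRC was lower at -0.63 (0.19 under normexp), 3 were not modulated, and CD163 stayed at background on all 6 arrays. Among 18 clathrin and scavenger uptake genes none was modulated, with 10.1% of all genes as background and a median of -0.03 that was 0.00 after quantile normalization.

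Prostaglandin genes held 3 risers and 4 fallers of 13 tested, with a median of -0.22 that was 0.01 under normexp. The terminal synthase PTGES stood at -2.08, -2.18 and -2.36 on the control arrays and at -0.24, -0.20 and -0.09 on the exposed arrays and was 4.08-fold higher (adjusted p = 4.14e-05). Cyclooxygenase-2 (PTGS2) rose by 1.02 and the phospholipase PLA2G4C by 2.10, while the thromboxane synthase TBXAS1 fell by 0.89. Of 23 interferon-stimulated genes 5 rose and 2 fell, with OASL at 2.07, IFIT3 at 0.92 and ISG15 at 0.74. Of 21 genes of IL-6 family receptors and JAK-STAT feedback, 4 rose and 1 fell, the risers including STAT5A (1.13), SOCS2 (0.92) and the oncostatin M receptor OSMR (0.81). The faller was the shared receptor subunit IL6ST (-0.59), whose call was lost under 11 of 12 alternatives. Of 19 BMP, activin and ID genes 4 rose and 4 fell. The BMP antagonist GREM1 (1.70) and the ligand BMP2 (1.34) opposed BMP7 (-0.83) and the BMP target ID1 (-0.78). Among the alternative fits the 7 modulated interferon-stimulated genes became as few as 4, and the 8 modulated genes of the BMP list as few as 5.

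**Figure D3:**
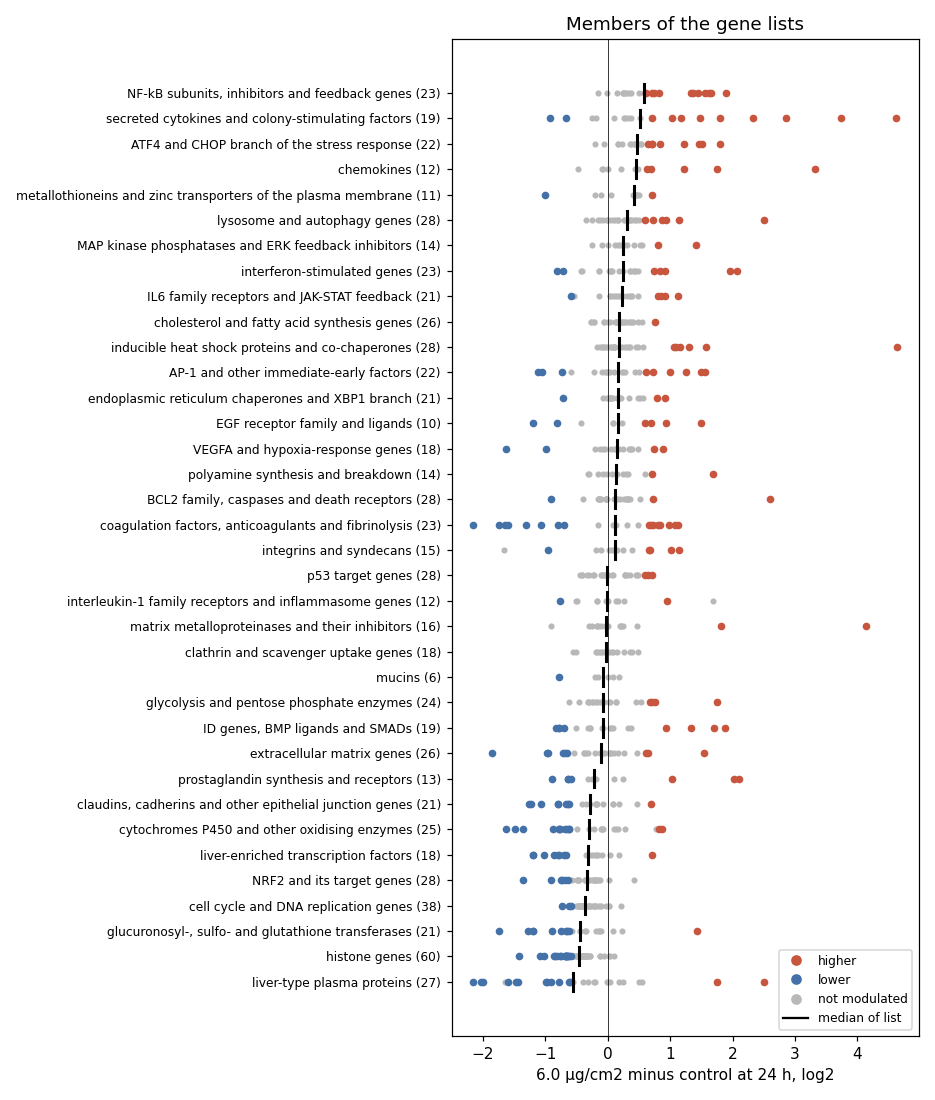
Differences between 6.0 µg/cm2 and control at 24 h (horizontal axis, log2) of every tested member of 35 gene lists and of the histone genes (number tested in brackets), with modulated genes coloured and a black bar at each list's median. The medians run from -0.56 for the plasma proteins to 0.58 for the NF-kB genes, and most lists hold members on both sides of 0.

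How did 6.0 µg/cm2 differ from 3.0 µg/cm2, the next lower dose, at the same time on the same slides? The 3 arrays at 3.0 µg/cm2 shared their controls with those at 6.0 µg/cm2. Values are therefore set side by side, and the test is made between the exposed arrays themselves. Each array at 3.0 µg/cm2 lay at position 2 of its slide and each at 6.0 µg/cm2 at position 3, so that position and dose cannot be told apart. Of 22140 probes tested, 363 (1.64%) differed between the doses, 154 (0.696%) higher and 209 (0.944%) lower at 6.0 µg/cm2. Against control, 636 of 22096 probes (2.88%) were modulated at 3.0 µg/cm2. Probes that had risen at 6.0 µg/cm2 had a median of 0.52 at 3.0 µg/cm2 and a median of 0.82 at 6.0 µg/cm2. For those that had fallen the medians were -0.45 and -0.80. The medians at 3.0 µg/cm2 leave out probes that were not tested at that dose. These probes and the genes named next were chosen for their values at 6.0 µg/cm2, which are used again here. Larger differences at 6.0 µg/cm2 than at lower doses are therefore favoured by the choice. HSPA6 had a difference from control of 2.56 at 3.0 and 4.64 at 6.0 µg/cm2, a step of 2.08 (adjusted p = 0.00227). For MMP1 the values were 2.37 and 4.13, a step of 1.76 (adjusted p = 0.00144), and for IL6 2.08 and 3.73, a step of 1.65 (adjusted p = 0.00145). Without 3.0 µg/cm2 array 2 the count of 363 became 231, and with normexp it became 20. HSPA1A stepped from 0.22 to 1.09 (0.87, adjusted p = 0.00224). H2AC16 stepped from -0.32 to -1.42 (-1.10, adjusted p = 0.00312). CHAC1 had 1.34 and 1.46, a step of 0.12 that did not pass (adjusted p = 0.434).

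At the 3 lower doses, which had control arrays of their own on other slides and, at 0.1 and 1.0 µg/cm2, an earlier version of the scanner software, the probes that rose at 6.0 µg/cm2 had medians of 0.10 at 0.1, 0.07 at 1.0 and 0.06 at 1.5 µg/cm2. The probes that fell had medians of -0.11, -0.06 and 0.01. Of the 2066 probes, 1872, 1808 and 1736 were tested at these doses, and the medians leave out the others. IL6 had differences of 0.38, 0.21 and 0.30 at these doses, MMP1 of -0.02, 0.50 and 0.54, and KRT4 of 0.05, 0.26 and -0.09.

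**Figure D4:**
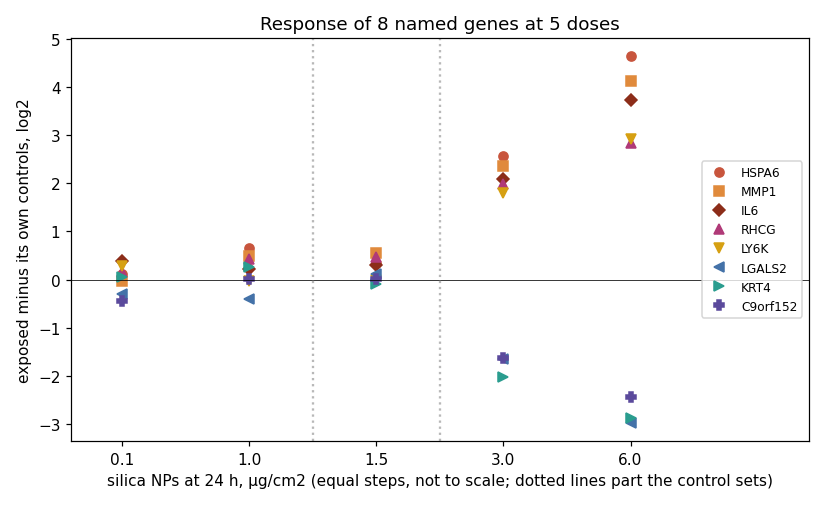
Difference from the controls of the same set at 24 h (vertical axis, log2) of 8 of the named genes at 5 doses of silica NPs (horizontal axis, µg/cm2, in equal steps). The 5 rising and 3 falling genes lie between -0.5 and 0.7 at the 3 lower doses and beyond 1.5 in either direction at 3.0 and 6.0 µg/cm2; arrays on either side of a dotted line had different controls.

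Was the response at 24 h the same as at 72 h? The 72 h response to 6.0 µg/cm2 was measured on 3 exposed and 3 control arrays of its own, and the difference of the responses was tested in 1 fit over 12 arrays. Of 22606 probes, 3888 (17.2%) differed, 1833 (8.11%) towards a higher and 2055 (9.09%) towards a lower value at 72 h. At 72 h alone 3740 of 21859 (17.1%) were modulated, 1449 (6.63%) higher and 2291 (10.5%) lower. The exposed arrays of 72 h were on other slides and were scanned on another day than their controls, so that scan and exposure cannot be told apart at 72 h. Of the 2066 probes modulated at 24 h, 876 passed the test of the difference. Since these probes were chosen for their 24 h values, which the test uses again, smaller responses at 72 h are favoured by the choice. Of the risers, 399 had a smaller response at 72 h and 27 a larger one. Among the fallers, 210 fell further and 240 were less reduced or reversed. The median response was 0.82 at 24 h and 0.32 at 72 h for the risers and -0.80 and -0.82 for the fallers. The 72 h medians leave out probes that were not tested at 72 h, so that the sets of probes differ.

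As lists, the heat shock genes had a median of 0.18 at 24 h and 0.23 at 72 h. Of these genes, 6 of 28 passed the test of the difference, against 17.2% of all probes. The chemokines had medians of 0.46 and 0.44, and 1 of 12 passed. Medians of lists at 72 h, here and below, leave out members that were not tested at 72 h. Single genes of several lists had smaller responses at 72 h. HSPA6 had 4.64 at 24 h and 1.39 at 72 h, a change of -3.25 (adjusted p = 7.66e-05), and CRYAB went from 1.57 to -1.03 (-2.60, adjusted p = 2.41e-05). SOD2 went from 1.89 to 0.62 (-1.27, adjusted p = 3.57e-06), PTGS2 from 1.02 to -0.54 (-1.56, adjusted p = 4.88e-05) and CD68 from 2.29 to 0.61 (-1.68, adjusted p = 5.07e-06). The glycolytic enzyme HK2, a riser at 24 h (1.75), was lower than control at 72 h (-1.20), a change of -2.95 (adjusted p = 5.07e-06). For some inflammatory genes the change did not pass the test: CCL20 had 1.76 and 1.40 (change -0.35, adjusted p = 0.473), and CCL5 had 3.33 and 3.83 (adjusted p = 0.145). RELB had 1.34 and 1.74 (adjusted p = 0.0043, a change under 1.5-fold) and the AP-1 subunit FOSL1 1.25 and 1.89, the last a larger response (change 0.64, adjusted p = 0.00522).

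Several liver-type genes fell further. The median of the plasma proteins was -0.56 at 24 h (0.04 with normexp) and -1.60 at 72 h. Of the 27 genes, 17 passed the test of the difference, against 17.2% of all probes. FGB went from -1.75 to -2.94 (-1.19, adjusted p = 5.39e-05) and FGG from -1.65 to -3.21 (-1.57, adjusted p = 9.14e-06). The junction list went from -0.29 to -0.76, with CDH1 at -1.22 and -1.42 (adjusted p of the change = 0.136) and CLDN2 at -1.27 and -2.22 (adjusted p = 1.56e-04). Cell cycle genes ran the opposite way: their median was -0.37 at 24 h and 0.30 at 72 h, and 25 of 38 passed the test of the difference against 17.2% of all probes. CCNB1 went from -0.46 to 0.37 (0.83, adjusted p = 1.79e-05). For histone genes the median went from -0.46 to 0.20, with 38 of 60 past the test, and H2AC16 went from -1.42 to 0.14 (1.56, adjusted p = 2.37e-04).

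**Figure D5:**
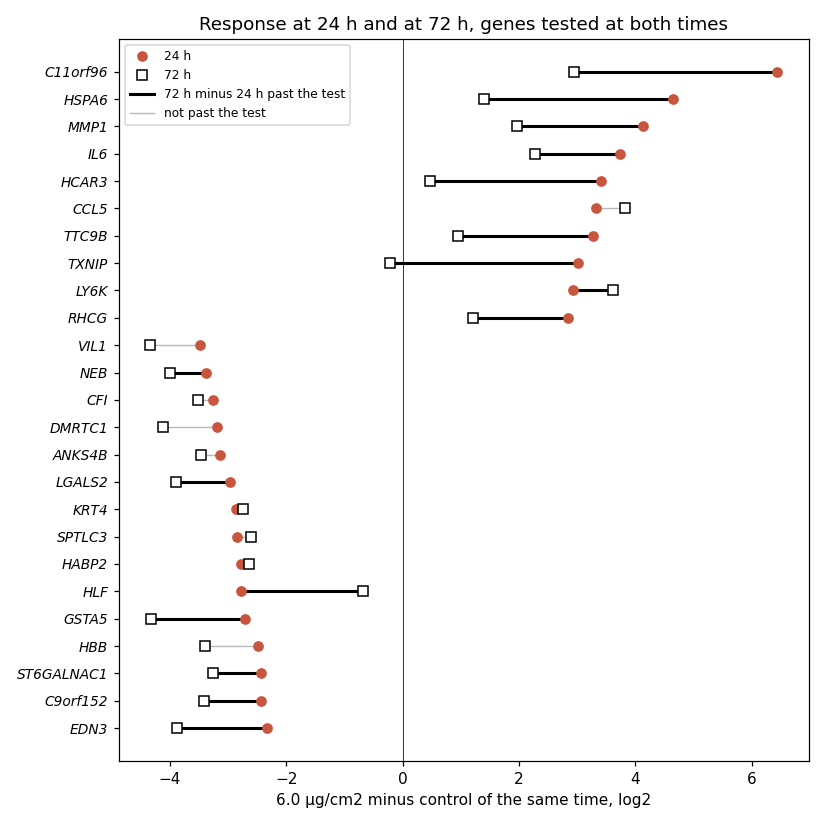
Difference between 6.0 µg/cm2 and the control of the same time (horizontal axis, log2) at 24 h (filled circles) and 72 h (open squares) for the 25 of 30 leading genes that were tested at both times; black lines mark genes whose responses differed in the test of 72 h against 24 h. Of the rising genes, LY6K and CCL5 had the larger value at 72 h and TXNIP fell below 0, while most falling genes had a larger fall at 72 h.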

How the data were processed

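RNA of each culture was amplified, labelled with 1 dye and hybridised to Agilent human 4x44K arrays, per the labels. The authors deposited the scanner output of Agilent Feature Extraction 11.0.1.1, whose processed signal is an intensity already corrected for background and spatial trends but not normalized between arrays. The deposited series matrix holds the same arrays' median spot intensity. From the processed signal, log2 values minus each array's 75th percentile were computed here, spots marked as outliers or non-uniform were dropped, the remaining spots of each probe were averaged, in R 4.3.3 with limma 3.58.1. Values were drawn with Python 3.11 and matplotlib. Genes were named by matching the array's accessions to RefSeq; 25715 of 34127 probes matched.

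Probes well above background on all arrays of at least 1 group were fitted by limma over the 6 arrays (the 12 arrays for 72 h against 24 h), with Benjamini-Hochberg adjustment over all probes tested; the script was tested on simulated data. The methods' unpaired t-test is an alternative, as are normexp, quantile normalization and the slide as a block. Replicate numbers mark slides that hold 1 control and 1 exposed array each; deviations of arrays of the same slide correlated at 0.131, -0.00786 and -0.0118. p-values measure the spread between cultures, 3 per group, and this number limits the precision. The named genes were the 15 largest rises and 15 largest falls whose groups did not overlap and whose higher group was well above background on every array, plus up to 6 modulated members per gene list. Further list members were given with their values, chosen after these were seen. Arrays, members and gene lists were chosen with earlier results of these data known. Some genes of these lists are not reported here.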

Additional observations from a re-analysis of the deposited data

Results flagged for a closer look

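Of the 30 leading genes, 21 responded differently at 72 h than at 24 h in the test of the difference of the responses (limma over 12 arrays); the values are the 72 h response minus the 24 h response on the log2 scale. Over all probes the share was 17.2%. The 30 genes were chosen for their differences at 24 h and the test uses the same 24 h arrays, so that a smaller response at 72 h is favoured by the choice. Rising genes with a smaller response at 72 h were C11orf96 (-3.49, adjusted p = 2.38e-05), HSPA6 (-3.25), TXNIP (-3.23), LINC00520 (-3, adjusted p = 4.15e-04), HCAR3 (-2.94), CSF3 (-2.75), IL24 (-2.33), TTC9B (-2.31), CD22 (-2.18), PTPRR (-2.18), MMP1 (-2.18), RHCG (-1.63) and IL6 (-1.46). LY6K was the 1 riser with a larger response at 72 h (0.69, adjusted p = 4.85e-04). Falling genes with a larger fall at 72 h were GSTA5 (-1.62), EDN3 (-1.55), C9orf152 (-0.967), LGALS2 (-0.927), ST6GALNAC1 (-0.818, adjusted p = 0.0436) and NEB (-0.623), and HLF was less reduced at 72 h (2.08, adjusted p = 2.40e-04). For genes that were not well above background in a group, such as IL24, CSF3, CD22, HLF and GSTA5, these are measured values near background and no bounds. The 72 h arrays lay on other slides, and their exposed arrays were scanned on another day than their controls; the part of these in the differences was not tested.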

How the results depend on the processing

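The 2066 modulated probes (875 higher, 1191 lower) stayed within 1.5 times under both t-test settings, quantile normalization, each filter, all spots kept, 18 arrays in 1 fit and a random block of slides (1728 to 2227); with gene symbols in place of probes it was 1454 of 14352. With the slide as a replicate block the count was 2031, 1985 of them shared, and it changed the call of MKI67, TLR3, IL6ST and ADH1C among 184 named genes; between the doses the block gave 356. Leaving out each array in turn gave 1944 to 2128 probes (831 to 969 higher, 1104 to 1225 lower), 3607 to 4022 for 72 h against 24 h and 231 to 406 for 6.0 against 3.0 µg/cm2, lowest without 3.0 µg/cm2 array 2. With normexp 803 probes passed, 781 of them shared (471 higher, 332 lower), 2498 for 72 h against 24 h and 20 between the doses; the higher share went from 42.4% to 58.7%, and the median of all probes from -0.03 to 0.10. On exposed array 3 the lowest 1% of normexp signals reached 156, against 56.8 to 58.5 on the other 5 arrays. Without that array, chosen after seeing the data, normexp gave 879 (442 higher, 437 lower), 2146 and 91. The series matrix, uncorrected for background, gave 938 (439 higher, 499 lower). Without a fold threshold 7600 passed (3156 higher, 4444 lower), 8564 and 2000; at 2-fold 607 (282 higher, 325 lower). Without a filter on dim probes 175 differed between the doses.

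Of 184 named genes, 110 kept their call and direction with normexp, 58 lost the call and 16, all falling, were reversed: SPTLC3 0.0532, HLF 0.0648, GSTA5 0.124, F10 0.175, IFITM1 0.0588, TLR3 0.0352, ITGA1 0.0277, CDH17 0.0509, HNF4G 0.14, NR0B2 0.264, PTPRC 0.195, COL4A3 0.106, FN1 0.301, ADH1C 0.204, UGT2B7 0.0935 and UGT2B11 0.0333; with exposed array 3 also left out 61 lost the call and none was reversed. Under each other alternative 4 to 11 lost the call. Genes near background are measured least firmly. Of further falls described here, BMP7, MUC5B, SPARC and CD14 had -0.21, -0.26, -0.40 and -0.40 at their weakest alternative, without a call. Of the rises, CXCL8, DNAJA4, SULT1C2 and TLR4 had 0.34, 0.35, 0.42 and 0.25, also without a call. For SAA2, CSF2, TNF, BIK, BMP2 and ITGA2 the weakest values were 0.35, 0.30, 0.29, 0.41, 0.51 and 0.51, again without a call. CXCL5, DUSP16, CDKN1A, SESN2 and HK2 each lost the call under 1 of 12 alternatives.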

Other observations

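Some solute carriers, keratins and metabolic genes not described above were modulated at 6.0 µg/cm2 and 24 h. Of 279 solute carrier genes tested, 13 were higher and 16 lower, a share of 10.4% close to the 10.1% of all genes. The monocarboxylate carrier SLC16A6 had the largest rise (2.38), and the amino acid transporter SLC38A2 rose by 0.73. The ascorbate transporter SLC23A1 (-1.89), the anion transporter SLC26A9 (-1.71) and the iron exporter SLC40A1, ferroportin (-1.02), fell. Of the keratins, KRT15 (1.45) rose and the intestinal keratin KRT20 (-0.68) fell. Of 14 polyamine genes SMOX, the spermine oxidase (1.68), and SAT1, the acetylase that starts polyamine breakdown (0.70), rose and none fell. That is a share of 14.3% against 10.1% of all genes.

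The BH3-only gene HRK of the BCL2 family stood at -3.59, -3.68 and -3.81 on the control arrays and at -1.09, -1.02 and -1.17 on the exposed arrays and was 6.07-fold higher (adjusted p = 1.84e-05), while BIK rose by 0.72 and BCL2L11 fell by 0.91. The other 25 of 28 tested genes of the BCL2 family, caspases and death receptors were not modulated. The share of 10.7% was near the 10.1% of all genes. Of 18 hypoxia-response genes, carbonic anhydrase CA9 (-1.62) and EGLN3 (-0.99) were lower and NDRG1 (0.75) and VEGFC (0.88) higher. At the weakest of 12 alternative fits CA9 had -0.08 and EGLN3 -0.14, each losing the call under 2. NDRG1 and VEGFC kept theirs under all 12. Of 24 glycolysis and pentose phosphate genes 4 rose, HK2 (1.75) and HK1 (0.76) among them, and none fell, a share of 16.7% against 10.1% of all genes. The median was -0.08, and 0.01 after quantile normalization. Of 26 sterol synthesis genes MVD alone rose (0.76). Of 12 genes of interleukin-1 receptors and inflammasomes TLR4 rose (0.95) and TLR3 fell (-0.76), the latter on 1 dim probe that was not modulated under 8 of 12 alternatives and reversed under 1. The only modulated mucin of 6 tested was MUC5B (-0.79). Few ribosomal, proteasome and complex I genes were modulated, against 10.1% of all genes: 1 of 67, 1 of 48, 0 of 50 and 1 of 47 members of the large ribosomal subunit, the small subunit, the proteasome and complex I. Complex I had a median of -0.17, with 4 of 47 genes above 0.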
